A study of Homo sapiens with 2 samples.

Results

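Antisense long noncoding RNAs are transcripts named after the protein-coding gene that they lie opposite or next to. They were chosen by symbol and level, out of 16424 listed genes. Of these genes, 173 had a symbol that ends in -AS and a number. The 138 of the 173 with a mean of at least 1 CPM over both libraries were kept. CPM is a tag number scaled to the size of its library. The selection used the mean level and not the ratio between the libraries, so the levels themselves are given as a description. Each antisense RNA was set beside the coding gene whose symbol precedes -AS. Of the other 35 antisense genes, with CEBPA-AS1 listed under separate identifiers, 16 were at 0 in both libraries and 19 lay above 0 but below 1 CPM.

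The study asked which signals M2BPGi, a glycoform of Mac-2-binding protein, changes in hepatocellular carcinoma cells. Cap analysis of gene expression (CAGE), which counts transcripts by a tag read at the capped 5′ end, was applied to PLC/PRF/5, a human hepatoma cell line. Each condition had 1 library: non-treated cells (0 µg/ml), and cells that received M2BPGi at 3 µg/ml and were collected after 6 h. No difference between the conditions has a replicate check, and none was tested. The libraries held 24040209 (non-treated) and 24862941 (M2BPGi-treated) tags, so that 1 tag was worth 0.0416 and 0.0402 CPM. Intervals given below are 95% Clopper-Pearson intervals of tag numbers, which cover counting error only and compare the libraries and not the conditions.

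Many promoters of mammalian genes are transcribed in both directions, and the RNA made away from the coding gene is often short-lived, because the nuclear exosome degrades it after early termination. Other antisense RNAs start inside or downstream of the coding gene and run across it. Some are spliced, stable and abundant, and a few serve as host transcripts from whose introns small nucleolar RNAs (snoRNAs) are cut.

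The cells carried the markers of their labelled origin. All 11 hepatocyte and hepatoma markers were above 1 CPM, and their summed level was 3593 CPM (non-treated) and 3554 CPM (M2BPGi-treated). KRT18 was the most abundant and was higher with M2BPGi (1250 and 1592 CPM), whereas AFP (695.4 and 565.6 CPM) and SERPINA1 (670.8 and 455.2 CPM) were lower. ALB was low, at 8.82 and 7.04 CPM. Of 5 macrophage markers, 2 were listed, PTPRC and CSF1R, both at 0. Of 5 stellate cell and fibroblast markers, 2 were listed, of which COL3A1 was at 4.53 and 3.42 CPM, and of 4 endothelial markers 0 were listed.

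By identifier, 136 of the 138 antisense RNAs were found in GENCODE v29. That annotation classed 97 as antisense, 17 as lincRNA, 15 as processed transcript and 1 as a bidirectional promoter lncRNA, but 2 as protein-coding, 3 as unitary pseudogenes and 1 as an unprocessed pseudogene. Another symbol is now in use for 30 of them, and 17 of these are now named as divergent transcripts (-DT). The coding gene was listed for 115 antisense RNAs and not listed for 23. In 114 of these 115 pairs the strand fields of the identifiers were opposite, and HNRNPU-AS1 carried the same strand as HNRNPU. How tags were assigned to genes, and whether strand was used, was not given in the sources used here. The values of overlapping pairs are therefore uncertain to the extent that tags could have been given to either gene. Tags could also have been counted more than once. AC003029.1, on the same strand as MAPKAPK5-AS1, held the same 532 and 539 tags.

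Both genes of 113 pairs could be placed on GRCh38, which is not the build named for the mapping. In 56 pairs the 5′ ends of the genes lay within 1000 bases of each other on opposite strands, an arrangement called head-to-head here. In 56 other pairs the genes overlapped with start sites further apart, and KDM5B-AS1 lay apart from KDM5B. In 18 of the head-to-head pairs the antisense RNA began beyond the start of the coding gene, so that the transcripts did not overlap, and in 38 they overlapped or met at their 5′ ends.

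The RefSeq promoter table (GRCh38.p14) held 112 of the 138 antisense RNAs, each with 250 bases before and 50 bases after the start. The median GC content of these promoters was 65.8%, against 66.0% for 100 matched coding genes of the pairs, 65.7% for 9894 genes with a mean of at least 1 CPM and 58.3% for all 27305 genes of the table. Exact matches on either strand were counted for the TATA box (TATAAA), the CCAAT box (CCAAT), the GC box (GGGCGG), the ETS factor site (CCGGAA) and the NRF1 site (GCATGCGC), and a match is a description of the sequence only. TATAAA was present in 3.57% of the antisense promoters, in 5.22% of the expressed genes and in 12.0% of all promoters of the table. For GGGCGG the shares were 64.3%, 71.8% and 44.6%, and for CCGGAA 31.2%, 31.9% and 17.6%. For CCAAT they were 37.5%, 37.6% and 35.7%, and for GCATGCGC 6.25%, 6.04% and 3.27%. The antisense promoters were thus closer to those of expressed genes than to the whole table in each motif, and GGGCGG was less frequent than in expressed genes. The 49 matched promoters of head-to-head antisense RNAs had a median GC content of 71.7%, with TATAAA in 0, GCATGCGC in 6 and GGGCGG in 77.6%, and the 63 others held GGGCGG in 54.0%.

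In 36 pairs the RefSeq start of the antisense RNA lay 13 to 233 bases beyond that of the coding gene, with a median of 109 bases. The stretch between both starts is short enough to be shown whole, and 5 are given for pairs that behaved differently between the libraries. Each is written 5′ to 3′ on the strand of the antisense RNA, from the base after the coding start to the base before the antisense start. Capitals mark the matches of the 5 motifs. The stretches are MANEA-AS1 at chr6:95577452-95577534 (minus strand), ATPBD4-AS1 at chr15:35546166-35546194 (plus), LENG8-AS1 at chr19:54449039-54449198 (minus), BOLA3-AS1 at chr2:74147913-74147980 (plus) and FLVCR1-AS1 at chr1:212858139-212858274 (minus).
MANEA-AS1: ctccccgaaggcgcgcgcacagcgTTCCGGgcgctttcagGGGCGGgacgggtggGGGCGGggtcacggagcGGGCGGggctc
ATPBD4-AS1: ggcgagcgcGGGCGGgagccaggaggtcg
LENG8-AS1: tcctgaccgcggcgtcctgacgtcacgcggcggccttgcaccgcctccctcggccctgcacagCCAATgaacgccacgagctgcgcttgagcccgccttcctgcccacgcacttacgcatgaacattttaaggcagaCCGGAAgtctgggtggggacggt
BOLA3-AS1: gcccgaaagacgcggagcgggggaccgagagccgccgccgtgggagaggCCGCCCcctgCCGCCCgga
FLVCR1-AS1: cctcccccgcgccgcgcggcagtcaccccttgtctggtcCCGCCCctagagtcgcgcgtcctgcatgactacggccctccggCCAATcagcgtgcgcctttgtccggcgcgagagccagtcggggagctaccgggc
All 5 were rich in G and C, from 65.6% in LENG8-AS1 to 82.8% in ATPBD4-AS1, and held from 5 to 18 CG dinucleotides. Between MANEA and MANEA-AS1 there were matches of CCGGAA and GGGCGG, and between FLVCR1 and FLVCR1-AS1 of CCAAT and GGGCGG. Between LENG8 and LENG8-AS1 there were matches of CCAAT and CCGGAA. For LENG8-AS1 the gene record of GENCODE v29 placed the start 158 bases inside LENG8, so that the genes overlapped there.

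The levels of the antisense RNAs spanned a wide range. The most abundant was C17orf76-AS1, now named SNHG29, a host of snoRNAs. The gene (ENSG00000175061, chromosome 17 from 16438822 to 16478678) was at 317.6 CPM (7635 tags) without and 412.5 CPM (10256 tags) with M2BPGi, a log2 ratio of 0.38 on the log2(CPM + 1) scale (interval of the tag ratio 0.33 to 0.42). Next came FGD5-AS1 with 121.6 and 128.8 CPM. OIP5-AS1, the conserved RNA also known as Cyrano, had 87.6 and 97.9 CPM. All 3 were higher in the M2BPGi-treated library, C17orf76-AS1 by the widest margin.

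The summed level of the 138 antisense RNAs was 1657 CPM without and 1654 CPM with M2BPGi. Without C17orf76-AS1 the sums were 1339.5 and 1242 CPM. The near-equal sums thus rested on C17orf76-AS1, and the other 137 together were lower in the M2BPGi-treated library.

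Of the other 7 among the 10 most abundant, PITPNA-AS1 was at 46.6 and 55.0 CPM and MMP24-AS1, which GENCODE v29 classes as protein-coding, at 31.0 and 36.3 CPM. HNRNPU-AS1 was at 27.5 and 28.6 CPM and NUTM2A-AS1 at 34.9 and 33.1 CPM. These 4 had log2 ratios from -0.07 to 0.23. NUTM2A-AS1 had a near-identical match of 502 bases in another gene, MMP24-AS1 of 125 bases and OIP5-AS1 of 100 bases. A match of at least 100 bases is called a near-identical copy here, though it can be a short part of the RNA. HNRNPU-AS1 could not be searched. SETD5-AS1 was at 59.3 CPM without and 41.2 CPM with M2BPGi, a log2 ratio of -0.51 (interval -0.64 to -0.41). EPB41L4A-AS1, also a host of snoRNAs, had 48.7 and 44.2 CPM, a log2 ratio of -0.14 (interval -0.26 to -0.02). These 2 snoRNA hosts therefore differed in direction. DLGAP1-AS1 had 40.3 and 31.7 CPM. Over these 10 the median log2 ratio was 0.07, with 6 higher and 4 lower, and over the other 128 it was -0.21, with 29 higher and 99 lower.

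**Figure D1:**
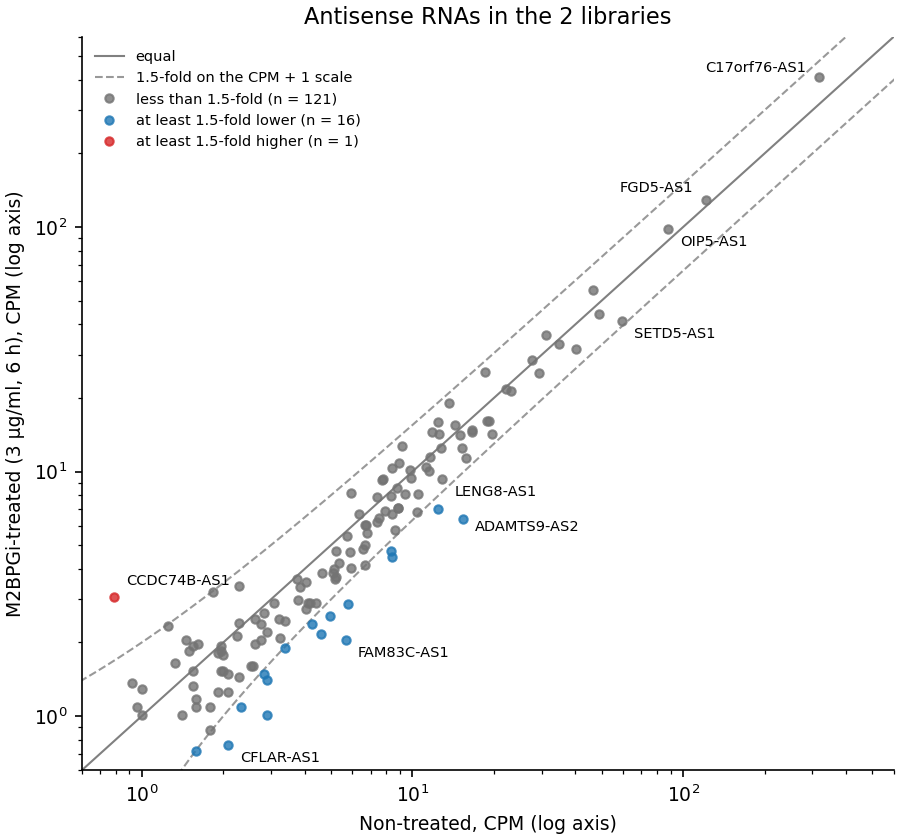
Level of each of the 138 antisense RNAs in the non-treated library (x axis, CPM, log scale) and the M2BPGi-treated library (y axis, CPM, log scale), with lines for equal values and for a 1.5-fold difference on the CPM + 1 scale. The 16 blue points below the lower line and the 1 red point above the upper line passed 1.5-fold, and all but ADAMTS9-AS2 and LENG8-AS1 started below 10 CPM.

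Most antisense RNAs were lower in the M2BPGi-treated library. Their median log2 ratio was -0.19, with 35 higher and 103 lower. Over all 13724 genes with a mean of at least 1 CPM the median was -0.05, with 5881 higher and 7826 lower. Antisense RNAs are mostly of low level, so genes of 1 to 10 CPM were set beside them: 103 antisense RNAs in this range had a median of -0.26, with 21 higher and 82 lower, and 4260 genes of the same range had a median of -0.11, with 1534 higher and 2714 lower. The 35 antisense RNAs of at least 10 CPM had a median of -0.07, with 14 higher and 21 lower, against -0.03 over 9464 genes. The distance from the other genes was thus carried by antisense RNAs of low level.

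By narrower ranges of mean level, the 32 antisense RNAs of 1 to 2 CPM had a median of -0.12 and the 848 genes of that range -0.10. Between 2 and 5 CPM, 37 of 40 antisense RNAs were lower, with a median of -0.31, against -0.11 for 1650 genes, of which 63.7% were lower. Between 5 and 10 CPM, 24 of 31 were lower, with a median of -0.20, against -0.11 for 1762 genes, of which 64.1% were lower. From 10 to 50 CPM the medians were -0.08 (30 antisense RNAs) and -0.07 (5775 genes), and at 50 CPM or more 0.16 (5 antisense RNAs) and 0.05 (3689 genes). The gap was widest between 2 and 5 CPM and close to 0 below 2 CPM and from 10 to 50 CPM.

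Other long noncoding RNAs served as a further comparison. The 35 intergenic RNAs with LINC symbols had a median of -0.08, with 16 higher and 19 lower, and the 20 of them at 1 to 10 CPM a median of -0.25, with 7 higher and 13 lower. The 6 symbols that end in -IT or -OT and a number, which mark RNAs from introns or overlapping the coding gene, had a median of -0.17, with 2 higher and 4 lower. At matched low level the LINC RNAs thus had a median close to that of the antisense RNAs. The share that was lower differed, with 65.0% of these LINC RNAs and 79.6% of the antisense RNAs, beside 63.7% of genes of that range.

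**Figure D2:**
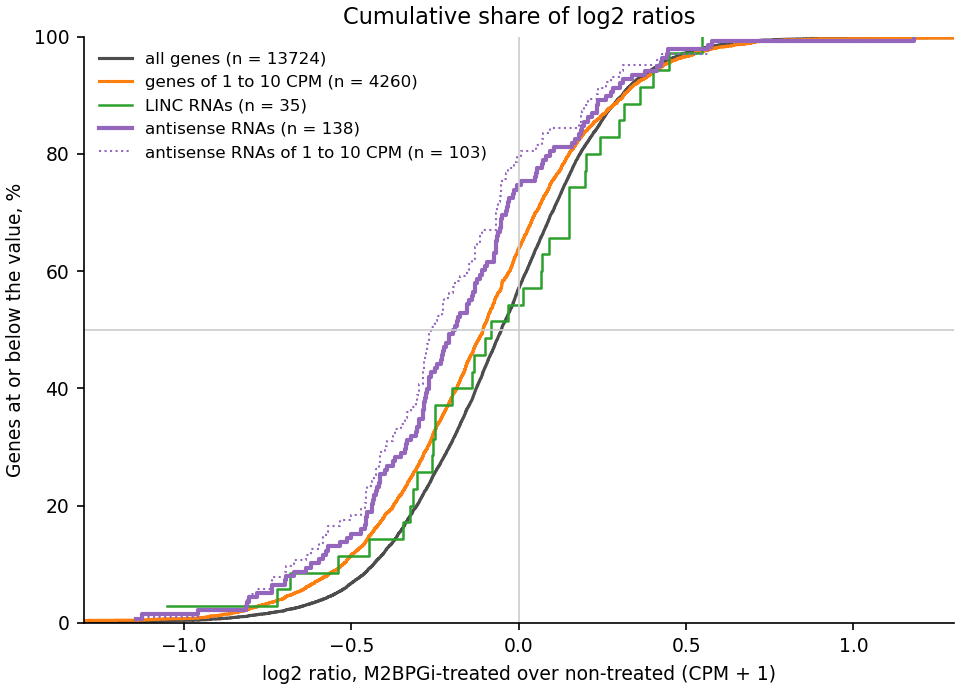
Cumulative share (y axis, %) of genes at or below each log2 ratio of M2BPGi-treated over non-treated cells (x axis, log2(CPM + 1) scale) for antisense RNAs (dotted: those of 1 to 10 CPM), all genes, genes of 1 to 10 CPM and LINC RNAs. The curve of the 138 antisense RNAs lies left of that of all 13724 genes over most of its middle, with medians of -0.19 and -0.05.

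At a fold threshold of 1.5 on the log2(CPM + 1) scale, 16 of the 138 antisense RNAs (11.6%) were lower and 1 (0.725%) was higher in the M2BPGi-treated library. Of these 17, CFLAR-AS1 and CACTIN-AS1 (1.58 and 0.72 CPM, just at 1.5-fold and named after its values were seen) lay below 1 CPM in the M2BPGi-treated library and CCDC74B-AS1 in the non-treated library, so that their means passed 1 CPM through the library in which each was higher. Over all genes 4.04% were at least 1.5-fold lower and 1.6% at least 1.5-fold higher. Among genes of 1 to 10 CPM these shares were 7.79% and 1.97%, and among the 103 antisense RNAs of this range 14.6% (15 RNAs) and 0.971% (1 RNA). Part of the excess of lower antisense RNAs over all genes is thus also seen in other genes of low level. The shares also depended on the pseudocount. With 0.1 CPM 18.8% of antisense RNAs and 6.24% of all genes were at least 1.5-fold lower, and with 5 CPM 1.45% and 1.19%. The tag ratio interval lay below 0 for 48 antisense RNAs (34.8%) and above 0 for 17 (12.3%), against 31.5% and 22.8% of all genes. The width of this interval depends on the tag number. At 1 to 10 CPM it lay below 0 for 35.9% of antisense RNAs and above 0 for 6.8%, against 24.1% and 9.25% of genes.

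The antisense RNAs with the lowest ratios came from genes of varied function. ADAMTS9-AS2 (ENSG00000241684, chromosome 3 from 64684909 to 65053439) was at 15.35 CPM (369 tags) without and 6.4 CPM (159 tags) with M2BPGi, a log2 ratio of -1.14 (interval -1.54 to -0.99). ADAMTS9, the gene of a secreted metalloprotease, had 60.9 and 44.1 CPM, a log2 ratio of -0.46. Both genes were lower, the antisense RNA by more. FAM83C-AS1 was at 5.66 and 2.05 CPM, a log2 ratio of -1.13 (interval -1.96 to -0.99), and FAM83C was not listed. On the log2(CPM + 1) scale these were the only 2 antisense RNAs at least 2-fold lower, and by CPM alone some of lower level were as well.

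MANEA-AS1, which starts head-to-head with the gene of a Golgi endomannosidase, was at 2.91 CPM (70 tags) and 1.01 CPM (25 tags), a log2 ratio of -0.96 (interval -2.25 to -0.86). INTS6-AS1, beside a subunit gene of the Integrator complex, had 4.58 and 2.17 CPM, and INTS6 had 31.4 and 25.5 CPM. KDM4A-AS1, beside the gene of a histone lysine demethylase, had 5.78 and 2.86 CPM, and KDM4A 30.7 and 27.99 CPM. In these 3 pairs both genes were lower in the M2BPGi-treated library, and the ratio of the antisense RNA was the lower of both.

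CFLAR-AS1 was at 2.08 CPM (50 tags) and 0.76 CPM (19 tags), the latter below the threshold of 1 CPM, while CFLAR, which encodes an inhibitor of death receptor signalling, had 62.9 and 67.8 CPM. ATPBD4-AS1 had 8.40 and 4.46 CPM, while ATPBD4, which acts in diphthamide synthesis, had 17.6 and 18.0 CPM. DENND5B-AS1 had 2.91 and 1.41 CPM against 29.8 and 30.0 CPM for DENND5B. In these 3 pairs the antisense RNA was lower and the coding gene was not. LENG8-AS1 (12.4 and 7.04 CPM) and LENG8 (50.1 and 33.1 CPM) were both lower, with log2 ratios of -0.74 and -0.58, the second just short of 1.5-fold. SRRM2-AS1 had 4.95 and 2.57 CPM, and SRRM2, the gene of a scaffold protein of nuclear speckles, 288.3 and 219.7 CPM. For INTS6, INTS6-AS1, KDM4A-AS1, CFLAR-AS1, SRRM2-AS1 and DENND5B-AS1 a near-identical stretch was found in another gene of GENCODE v29, so that some of their tags could have been assigned elsewhere.

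Fewer antisense RNAs were higher. On the log2(CPM + 1) scale CCDC74B-AS1 was the only 1 past 1.5-fold, with 0.79 CPM (19 tags) without and 3.06 CPM (76 tags) with M2BPGi, a log2 ratio of 1.18 (interval 1.21 to 2.76 for the tag ratio, which has no pseudocount). It lay below 1 CPM in the non-treated library, so that its mean passed 1 CPM through the M2BPGi-treated library. CCDC74B had 4.12 and 4.18 CPM. This antisense RNA is now named MED15P9 and classed as a pseudogene, and 6 other genes of GENCODE v29 held a near-identical stretch, so its tags are uncertain. CCDC74B has a near-identical copy as well. DHRS4-AS1, beside the gene of a carbonyl reductase, was at 1.83 and 3.22 CPM, and DHRS4 at 6.28 and 9.37 CPM, so that both genes were higher. ZEB1-AS1, at the gene of a transcriptional repressor of epithelial genes, was at 1.25 CPM (30 tags) and 2.33 CPM (58 tags), against 4.58 and 5.19 CPM for ZEB1. ZEB1-AS1 and DHRS4 also have a near-identical copy.

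MAGI2-AS3 had 13.7 and 19.0 CPM, ENTPD3-AS1 18.6 and 25.6 CPM, and PRRT3-AS1 12.4 and 16.0 CPM, all with a coding gene that was not listed. SBF2-AS1 had 9.15 and 12.7 CPM, against 23.0 and 22.4 CPM for SBF2. KTN1-AS1 had 2.29 and 3.42 CPM, whereas KTN1, the gene of the kinesin-binding protein kinectin, had 275.5 and 225.7 CPM. BOLA3-AS1 had 5.91 and 8.20 CPM, and BOLA3, which acts in iron-sulphur cluster assembly in mitochondria, 66.1 and 109.6 CPM. These 6 had log2 ratios from 0.34 to 0.45, and of the 3 with a listed coding gene only BOLA3-AS1 shared its direction with the coding gene, which has a near-identical copy.

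Further antisense RNAs were given from a fixed list. HOXA-AS2 was at 14.3 and 15.5 CPM, and TP73-AS1 at 12.8 and 12.4 CPM, both with no listed coding gene. GENCODE v29 classes TP73-AS1 as a unitary pseudogene. TMPO-AS1 had 16.6 and 14.5 CPM, MAPKAPK5-AS1 22.1 and 21.7 CPM, and MCM3AP-AS1 9.36 and 8.08 CPM. The interval of the tag ratio included 0 for these 5. TPT1-AS1, at the gene of the translationally controlled tumour protein, had 3.83 and 3.38 CPM, also with an interval that included 0, whereas TPT1 had 691.6 and 826.0 CPM. PCBP1-AS1 had 15.3 and 12.5 CPM, a log2 ratio of -0.27 (interval -0.51 to -0.07). TPT1, TPT1-AS1 and PCBP1-AS1 have near-identical copies.

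Compared with their coding genes, antisense RNAs were usually the minor transcript. A CAGE tag counts a 5′ end and not a length, so tags of both genes of a pair could be set in 1 share. The median share of the antisense RNA in the tags of its pair was 12.8% in non-treated and 11.6% in M2BPGi-treated cells. In 16 of 115 pairs the antisense RNA exceeded the coding gene in both libraries. ENTPD1 and TRAF3IP2 were listed at 0 in both libraries (which allows up to 0.125 and 0.121 CPM), while ENTPD1-AS1 had 9.82 and 10.2 CPM and TRAF3IP2-AS1 8.82 and 7.08 CPM. OIP5-AS1 made up 74.7% (interval 73.0% to 76.3%) and 78.2% (76.7% to 79.7%) of its pair with OIP5, a centromere protein gene.

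Other antisense RNAs with a large share were IQCH-AS1 (82.5% and 77.6%), THAP9-AS1 (79.6% and 84.2%) and TMEM44-AS1 (79.4% and 79.5%). IQCH-AS1 and the coding genes ENTPD1 and THAP9 have a near-identical copy, so these shares are uncertain. KIAA1984-AS1 made up 91.1% (interval 88.4% to 93.4%) and 96.5% (94.03% to 98.1%), with KIAA1984 at 1.91 and 0.52 CPM. LBX2-AS1 made up 80.4% (71.8% to 87.3%) and 91.8% (84.5% to 96.4%), with LBX2 at 0.92 and 0.32 CPM. In the last 2 pairs the share was higher in the M2BPGi-treated library although the antisense RNA was not, with 19.7 and 14.3 CPM for KIAA1984-AS1 and 3.74 and 3.62 CPM for LBX2-AS1.

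**Figure D3:**
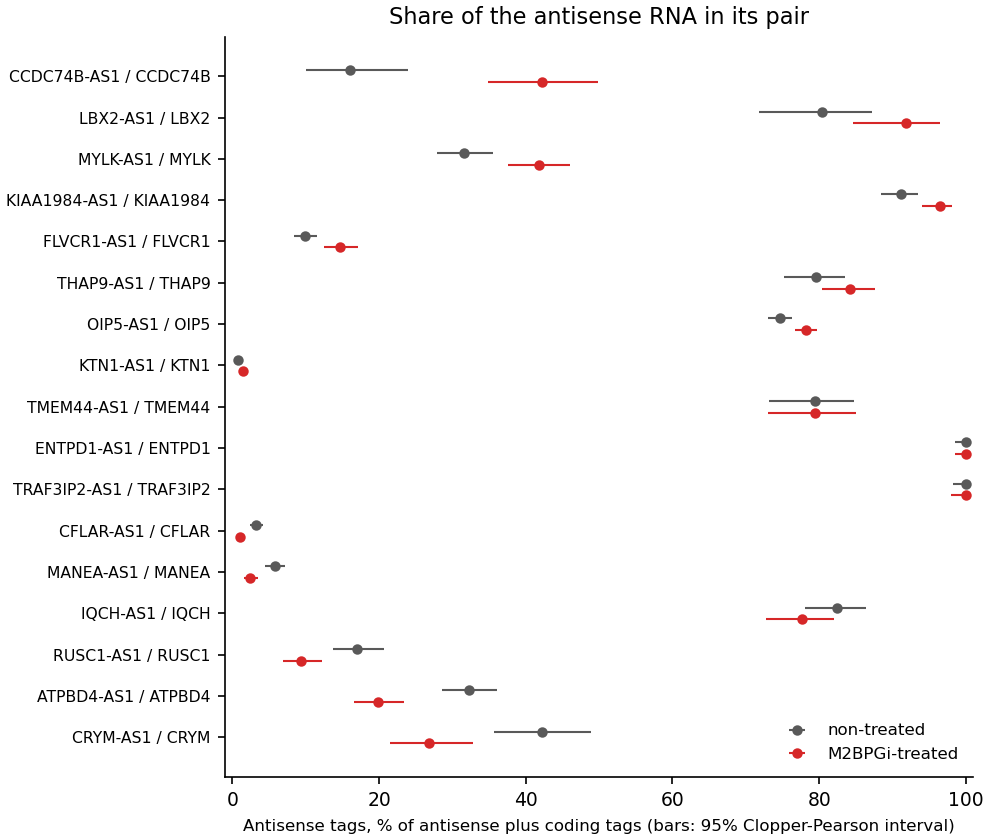
Share of the antisense RNA in the tags of its pair (x axis, %) in non-treated and M2BPGi-treated cells for the pairs with the largest antisense shares and the largest differences of log2 ratio, with 95% Clopper-Pearson intervals as bars. The share of CCDC74B-AS1 was 16.1% and 42.2%, and that of CRYM-AS1 42.2% and 26.9%.

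Antisense RNA and coding gene moved the same way in 66 of 115 pairs, with both lower in 53 and both higher in 13. In 34 pairs the antisense RNA was lower and the coding gene higher, in 13 the reverse, and in 2 the coding gene was at 0. Over all 115 pairs 88 of the antisense RNAs and 66 of the coding genes were lower, beside 57.0% of all genes. In the 113 pairs with a coding gene above 0, the totals of lower and higher genes alone would put 61.6 pairs the same way. This is close to the 66 counted. Across the 115 pairs Pearson's r of the log2 ratios was 0.30 and Spearman's rho 0.28, as a description of pairs that share both libraries. The antisense RNA had the lower ratio in 73 pairs and the higher in 42, with a median difference (antisense minus coding) of -0.09, which depended on the pseudocount (-0.17 with 0.1 CPM and -0.016 with 5 CPM). The coding genes had a median log2 ratio of -0.06, close to that of all genes, whereas the antisense RNAs of these pairs had a median of -0.23. Their median levels were 29.8 CPM (coding genes) and 4.45 CPM (antisense RNAs), so that this comparison is not matched for level. At least 1.5-fold lower were 5 coding genes and 14 antisense RNAs, and higher 1 of each, beside 4.04% lower and 1.6% higher of all genes and 7.79% lower of genes of 1 to 10 CPM.

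The odds of an antisense tag against a coding tag need no pseudocount. Of 113 pairs with a coding gene above 0 in both libraries, the 95% exact conditional interval of the odds ratio lay below 1 in 31 and above 1 in 10. By the difference of log2 ratios with the pseudocount of 1 CPM, the 5 pairs furthest towards a lower antisense RNA were CFLAR-AS1 (share 3.20% and 1.11%), ATPBD4-AS1 (32.3% and 19.9%), CRYM-AS1 (42.2% and 26.9%), MANEA-AS1 (5.76% and 2.37%) and RUSC1-AS1 (16.98% and 9.34%). In these 5 the intervals of the shares did not overlap between the libraries. They were chosen by their difference between the same libraries, so that this is no further observation. The mean of CFLAR-AS1 passed 1 CPM only through the non-treated library. CRYM-AS1 had 4.03 and 2.73 CPM, while CRYM, which encodes a thyroid hormone-binding protein, had 5.53 and 7.44 CPM, so that they moved in opposite ways. GENCODE v29 classes CRYM-AS1, now named ABCA15P, as a unitary pseudogene. RUSC1-AS1 had 3.37 and 1.89 CPM against 16.5 and 18.3 CPM for RUSC1, and it has a near-identical copy.

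By the same difference, which ranks pairs otherwise than the odds ratio does, the 5 furthest the other way were CCDC74B-AS1 (16.1% and 42.2%), KTN1-AS1 (0.823% and 1.49%), FLVCR1-AS1 (9.92% and 14.7%), MYLK-AS1 (31.6% and 41.7%) and LBX2-AS1. FLVCR1-AS1 itself had 5.74 and 5.43 CPM, whereas FLVCR1, the gene of a membrane transporter, had 52.1 and 31.5 CPM. MYLK-AS1 had 7.70 and 9.25 CPM, against 16.6 and 12.9 CPM for MYLK, the gene of myosin light chain kinase. In FLVCR1, MYLK, KTN1 and LBX2 the coding gene was lower in the M2BPGi-treated library, which was not so in CCDC74B.

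**Figure D4:**
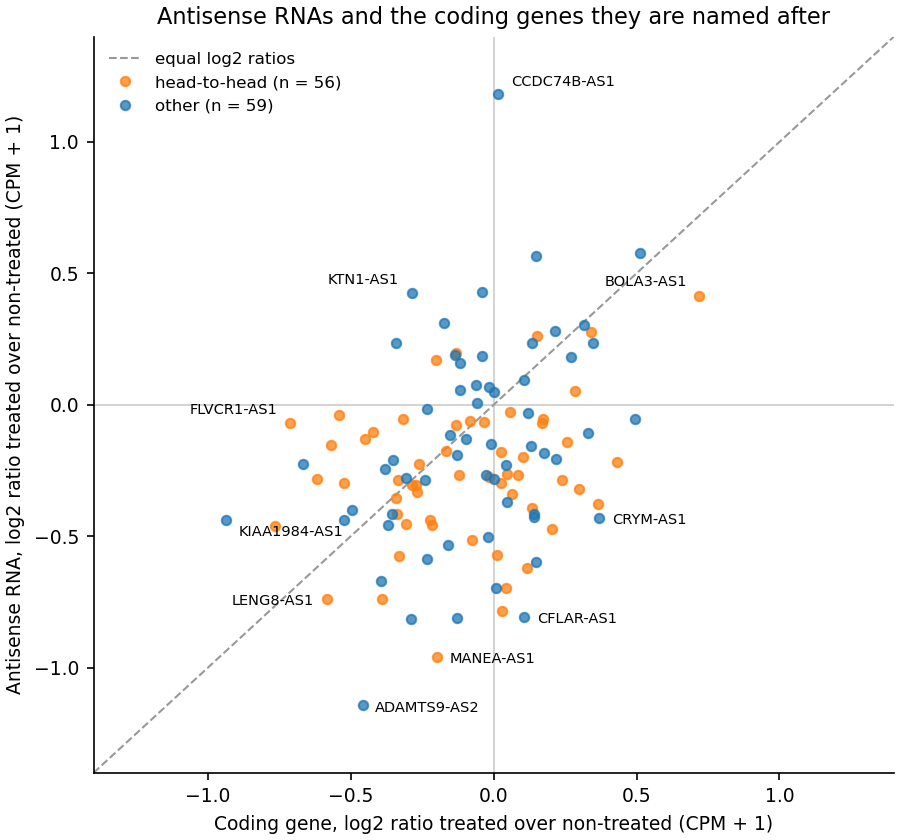
Log2 ratio of M2BPGi-treated over non-treated cells (log2(CPM + 1) scale) of the antisense RNA (y axis) against its coding gene (x axis) in 115 pairs, coloured by arrangement. More points lie below the dashed line of equal ratios (73) than above it (42).

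The direction was also counted by arrangement, with no test. Of the 56 head-to-head antisense RNAs, 50 were lower and 6 higher, with a median log2 ratio of -0.28, whereas of the 59 others 38 were lower and 21 higher, with a median of -0.18. Median levels were 4.51 and 4.39 CPM. Among antisense RNAs of 1 to 10 CPM, with median levels of 3.655 and 2.855 CPM, 44 of 49 head-to-head RNAs and 30 of 45 others were lower. For comparison, 57.0% of all genes and 63.7% of genes of 1 to 10 CPM were lower. The antisense RNAs that were not head-to-head were near the latter share in both counts. The coding genes had medians of -0.10 and -0.04 in the 2 arrangements. A ratio at least 1.5-fold lower was not more frequent in head-to-head antisense RNAs (6 of 56) than in the others (8 of 59). Of all genes 4.04% were at least 1.5-fold lower, and of genes of 1 to 10 CPM 7.79%. With the nearest annotated transcript starts in place of the gene ends, a choice made after the data were seen, 87 pairs were head-to-head, with 70 antisense RNAs lower and 17 higher, and of the other 28 antisense RNAs 18 were lower and 10 higher. The contrast was thus smaller by that definition.

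Of the 17 antisense RNAs now named as divergent transcripts, 16 were lower and 1, BOLA3-AS1, was higher, beside 57.0% of all genes lower. Their median was -0.31, against -0.16 for the other 121 antisense RNAs, and 4 were at least 1.5-fold lower, a step that 4.04% of all genes and 7.79% of genes of 1 to 10 CPM reached. All 17 are among the 56 head-to-head pairs, so that they are no further observation. These 4 were MANEA-AS1, ATPBD4-AS1, COX10-AS1 (8.32 and 4.75 CPM) and RPL34-AS1 (2.83 and 1.49 CPM). COX10-AS1 and RPL34-AS1 were named after their values were seen. Their coding genes COX10 (24.2 and 24.98 CPM) and RPL34 (73.5 and 79.7 CPM), both with a near-identical copy, were not lower. In the 36 pairs with RefSeq starts 13 to 233 bases apart, 30 antisense RNAs and 21 coding genes were lower. The share of these coding genes was close to the 57.0% of all genes that were lower.

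**Figure D5:**
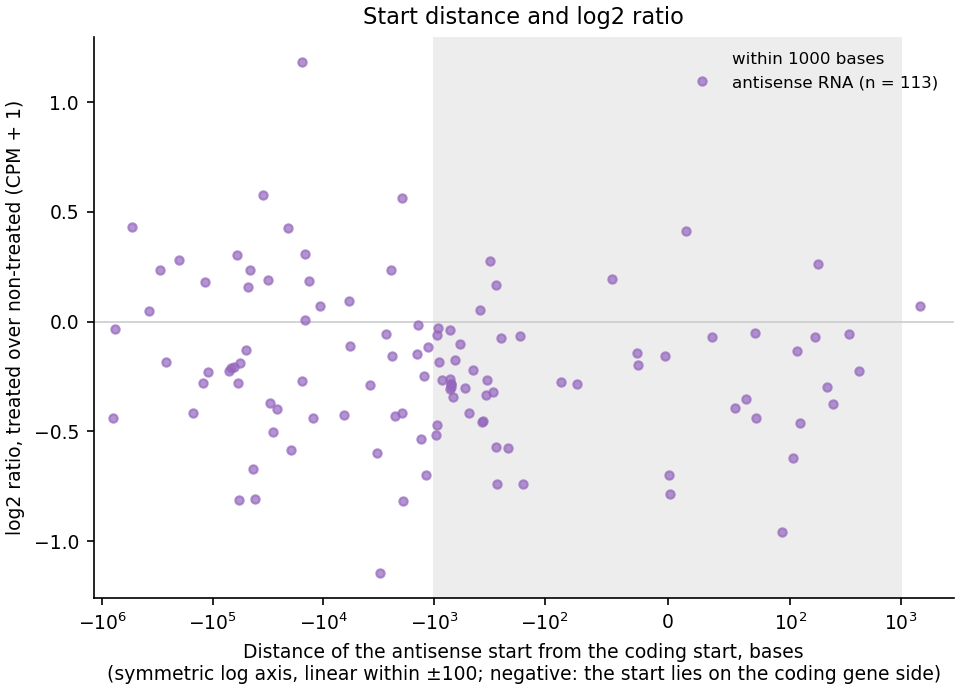
Log2 ratio of 113 antisense RNAs (y axis, log2(CPM + 1) scale) against the distance of their start from that of the coding gene (x axis, bases, symmetric log scale), with negative distances where the antisense start lies on the side of the coding gene. Within 1000 bases (shaded) 50 of 56 points lie below 0, beside 57.0% of all genes.

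Genes known to act on such transcripts were taken from fixed lists. Of nuclear RNA decay genes (the exosome, its adaptors and cap-binding partners), 28 were at 1 CPM or more, 14 higher and 14 lower, with a median log2 ratio of 0.03 beside -0.05 for all genes. ZFC3H1, a subunit of the complex that directs polyadenylated nuclear RNA to the exosome, had 20.3 and 12.8 CPM and was the only 1 past 1.5-fold (3.57% of the list, beside 4.04% of all genes at least 1.5-fold lower). The decay genes were thus evenly divided between higher and lower.

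Of transcription termination genes (Integrator, cleavage and polyadenylation, pausing factors), 35 were at 1 CPM or more, 10 higher and 25 lower (71.4%, beside 57.0% of all genes), with a median of -0.12. PCF11, a termination factor of RNA polymerase II, had 23.2 and 13.3 CPM, and INTS2 9.65 and 5.91 CPM. These were the 2 past 1.5-fold, both lower (5.71%, beside 4.04% of all genes). INTS6 and CSTF3 of this list are also coding genes of the 115 pairs. ZFC3H1, PCF11 and INTS2 were named after their values were seen.

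At the threshold of 1 CPM, the antisense RNAs just inside were CDKN2B-AS1 (1 and 1.01 CPM), CECR5-AS1 (0.96 and 1.09 CPM) and, with equal means, LAMTOR5-AS1 (0.92 and 1.37 CPM) and SEC24B-AS1 (1 and 1.29 CPM). LAMTOR5-AS1 and SEC24B-AS1 have a near-identical copy. Just outside were SLC25A5-AS1 (1 and 0.80 CPM), CBR3-AS1 (1.04 and 0.68 CPM) and MATN1-AS1 (1.04 and 0.60 CPM).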

How the data were processed

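CAGE tags of PLC/PRF/5 cells were analysed as values per gene, which the authors deposited in CPM with 2 decimals. Their methods describe removal of ribosomal RNA reads and mapping with BWA to a mouse genome, whereas the submitters' processing notes name hg19, BWA and HISAT2 and the gene identifiers are human. The library totals were inferred from the size of the smallest step between CPM values. Given these totals, 100% of the non-zero values lay within the rounding of a whole tag number (0.005 CPM), and 83.2% (non-treated) and 80.4% (M2BPGi-treated) within 0.1 tag. Tag numbers served only for depth, shares and intervals, which cover counting error, and 0 tags allow up to 3. Log2 ratios used a pseudocount of 1 CPM, which understates changes of low genes. A fold of 1.5 stood in place of a test.

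Gene records, names and types came from GENCODE v29 (GRCh38) and a current name table, and promoters from RefSeq. For near-identical copies, the first 500 bases of each transcript were compared with all transcripts of GENCODE v29 by BLAST+ 2.17.0, and a match of at least 100 bases and 95% identity in a gene elsewhere was counted. Of 136 antisense RNAs searched, 25 had such a copy. Whether the match reached the 5′ end of the transcript, where CAGE tags lie, was not checked. Python 3.11.15, numpy 2.4.6, pandas 2.3.3, scipy 1.17.1 and matplotlib 3.10.9 were used, and the scripts were tested on simulated data.

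Named antisense RNAs were the 10 of highest mean, the 10 of lowest and the 10 of highest log2 ratio, the 8 with the largest share among those above their coding gene in both libraries, the 5 pairs with the largest difference each way, 3 on either side of the threshold, and a fixed list where listed, with their coding genes. Of these, 1 is not described here. Alternatives were other pseudocounts, filters on low values, a rescaling, a fold of 2 and narrower choices of pairs. After seeing the data, antisense RNAs without near-identical copies, those not annotated as coding genes or pseudogenes, pairs with both genes of at least 5 CPM, and nearest transcript starts were added. The antisense RNAs and the gene lists were chosen with earlier results of these data known.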

Additional observations from a re-analysis of the deposited data

How the results depend on the processing

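The median log2 ratio of the antisense RNAs was below 0, and below that of all genes, under each of the 8 alternatives that gave a median. It was -0.12 with a pseudocount of 5 CPM and -0.074 with a mean of at least 10 CPM, where 35 antisense RNAs were left. With the libraries rescaled to a median of 0 over all genes (factor 1.04) it was -0.14, with 42 higher and 96 lower. The number past the fold threshold (17, of which 16 lower and 1 higher) depended on the settings. It was 29 (26 lower, 3 higher) with a pseudocount of 0.1 CPM and 2 (2 lower, 0 higher) with 5 CPM. It was 4 (4 lower, 0 higher) of 66 with a mean of at least 5 CPM and 1 (1 lower, 0 higher) of 35 with at least 10 CPM. In this order, 18.8%, 1.45%, 6.06% and 2.86% of the antisense RNAs were lower past the threshold, beside 6.24%, 1.19%, 3.03% and 2.36% of all genes, so that little was left of the excess with a pseudocount of 5 CPM or a mean of at least 10 CPM. At a fold of 2 it was 3, of which 2 lower (1.45%, beside 0.43% of all genes) and 1 higher (0.725%, beside 0.24%). After rescaling 3 were higher (2.17%, beside 2.22% of all genes) and 14 lower (10.1%, beside 3.17%). Alternatives chosen after seeing the data gave 10 (10 lower, 0 higher) among the 111 that were searched and had no copy. The 10 were 9.01% of these, beside 4.04% lower and 1.6% higher of all genes, which were not filtered for copies. Also chosen then, leaving out annotated coding genes and pseudogenes, CCDC74B-AS1 among them, gave 16 lower (12.1% of 132) and 0 higher.

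In the pairs, the median difference was -0.17 with a pseudocount of 0.1 CPM, -0.14 with no near-identical copy and -0.016 with a pseudocount of 5 CPM, where 61 of 115 pairs had the lower ratio in the antisense RNA. With no near-identical copy of either gene this held for 47 of 73 pairs. With both genes at 5 CPM or more, chosen after seeing the data, it held for 25 of 44 pairs, and 28 moved the same way. By nearest transcript starts, also added later, 87 pairs were head-to-head. The cause of these differences was not tested. Of 57 values for sets under alternatives, 31 lay within 1.5 times the reported count or within a 95% interval of the reported median. This interval comes from the ranks of the antisense RNAs or pairs, is not a counting interval and says nothing about replicates. Counts were compared without regard to the size of the set. For 54 named antisense RNAs, 148 of 162 log2 ratios under alternatives lay within the counting interval, and 13 of the 14 outside it came from a pseudocount of 5 CPM. With 1 library per condition, no paired analysis was possible. TMM factors and the exact binomial test were not run. Depth limits the lowest antisense RNAs, as 1 tag is worth 0.0416 CPM (non-treated) or 0.0402 CPM (M2BPGi-treated).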
